A study of Mus musculus with 30 samples.

Results

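Potassium, sodium and calcium channels are the membrane proteins through which hair cells and neurons are charged, discharged and made to release transmitter. Their genes were followed here through 2 mouse cell lines and 4 expression vectors. Members were all transcript clusters of the array that carried a single gene symbol and whose symbol began with Kcn, named a sodium channel pore or beta subunit (Scn followed by a number and a, or a number and b), or named a calcium channel alpha, beta or gamma subunit (Cacna, Cacnb, Cacng). Of 41345 transcript clusters, 25341 had a symbol and were tested, and 136 of these belonged to the channel genes. They stood for 126 genes, of which 124 code for protein and 2 (Kcnq1ot1 and Kcnd3os) do not. A gene with several clusters was represented by the cluster of the highest mean over all 30 arrays, which applied to 10 genes. By family there were 36 voltage-gated potassium pore genes, 17 auxiliary subunits and regulators of potassium channels, 14 inward rectifiers, 13 two-pore-domain potassium channel genes, 8 calcium- or sodium-activated potassium pore genes, 8 sodium pore genes and 3 sodium beta subunits. Calcium channels contributed 10 alpha1 pore genes, 8 gamma subunits, 4 alpha2delta subunits and 3 beta subunits.

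The samples were 3 arrays in each of 10 groups. The 15 iMOP samples came from immortalized multipotent otic progenitor cells, a single clone made with c-Myc from Sox2-expressing cochlear progenitors and grown in suspension with basic fibroblast growth factor. The 15 mESC samples came from mouse embryonic stem cells (the ES-D3 line) kept on arrested fibroblast feeders with LIF and separated from them before use. In each line cells received p183AT (the miR-183 family, Atoh1 and a red fluorescent protein), pAT (Atoh1 and the fluorescent protein), p183T (the miR-183 family and the fluorescent protein) or pT (the fluorescent protein alone), all from the EF-1 alpha promoter, or were left untransfected (UT). Transfected cells were sorted for red fluorescence at 48 h, and UT cells were not sorted. The lines also received different transfection reagents. Values are log2 of the array signal, and 1 unit is a doubling. The labels call the 3 samples of a group distinct biological samples and say no more, so that a p-value weighs a difference only against how these samples vary. With 3 arrays a group, precision is limited throughout.

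Voltage-gated channels open when the membrane depolarizes. Sodium and calcium pores carry the inward current, and potassium pores bring the membrane back. Auxiliary subunits set how many pores reach the surface and how fast they open. Inward rectifiers and two-pore-domain channels hold the resting potential, while calcium-activated potassium channels such as BK, whose pore is encoded by Kcnma1, tie repolarization to calcium entry. In mature inner hair cells BK gives the fast outward current and the calcium channel made by Cacna1d drives transmitter release. In outer hair cells Kcnn2 channels answer the efferent synapse. Atoh1 is the basic helix-loop-helix factor that starts hair cell formation, and the miRNAs of the miR-183 family are made in sensory cells of the ear, eye and dorsal root ganglia.

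Across the series, array medians were 4.37 to 4.51 in iMOP samples and 4.57 to 4.69 in mESC samples, and samples of a group correlated at r = 0.975 to 0.993. The vectors were seen in the data: Atoh1 was at 6.41 to 6.44 in iMOP pAT against 5.21 to 5.57 in iMOP pT, and at 5.83 to 6.19 in mESC pAT against 4.84 to 5.24 in mESC pT. The miR-96 precursor was at 6.92 to 7.67 in iMOP p183T against 3.53 to 3.72 in iMOP pT, and at 8.66 to 9.15 in mESC p183T against 3.39 to 3.48 in mESC pT. All 10 pluripotency markers were lower in iMOP UT than in mESC UT. Of 12 otic progenitor markers 6 were higher and 5 lower in iMOP UT, with Gata3, Isl1, Pax2, Pax8 and Oc90 under log2 5. Of 9 hair cell markers 8 were under log2 5 in iMOP UT and 6 in mESC UT. The second iMOP pT sample had the lowest correlation with its own group of all 30 (r = 0.9802), followed by the first iMOP pT sample (r = 0.9864). Whether the second sample stands apart was not tested, and counts that include it are given without it too.

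The sequences that the vectors and the channel genes bring together are few. The 3 miRNAs of the family share most of their seed, the stretch (bases 2 to 8, in capitals) that pairs with target transcripts. They lie on the minus strand of chromosome 6 in the GRCm38.p6 build, at chr6:30169711-30169732, chr6:30169506-30169528 and chr6:30165962-30165986, and are given 5′ to 3′ as RefSeq lists them. The seeds of miR-96-5p and miR-182-5p begin with the same 6 bases.
mmu-miR-183-5p: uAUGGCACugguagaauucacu
mmu-miR-96-5p: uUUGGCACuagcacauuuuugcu
mmu-miR-182-5p: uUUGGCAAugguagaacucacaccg

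Atoh1 binds E-box sequences, written CANNTG. The promoters of Kcnk5, Kcnj3 and Kcng3 are shown because these were the channel genes whose level differed most firmly between mESCs with and without Atoh1. Each run holds the 250 bases before the start in RefSeq's promoter table, at chr14:20181783-20182032 on the minus strand for Kcnk5, chr2:55435720-55435969 on the plus strand for Kcnj3 and chr17:83631896-83632145 on the minus strand for Kcng3, with any CANNTG in capitals.
Kcnk5: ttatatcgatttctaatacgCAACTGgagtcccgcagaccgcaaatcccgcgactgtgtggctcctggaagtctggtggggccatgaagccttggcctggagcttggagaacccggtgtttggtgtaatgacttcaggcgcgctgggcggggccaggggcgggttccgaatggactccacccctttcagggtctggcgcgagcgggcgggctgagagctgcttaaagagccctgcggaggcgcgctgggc
Kcnj3: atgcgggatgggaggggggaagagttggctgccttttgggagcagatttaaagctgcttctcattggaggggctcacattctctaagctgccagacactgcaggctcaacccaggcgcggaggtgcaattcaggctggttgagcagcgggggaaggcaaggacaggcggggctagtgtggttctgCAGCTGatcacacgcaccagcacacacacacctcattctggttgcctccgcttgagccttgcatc
Kcng3: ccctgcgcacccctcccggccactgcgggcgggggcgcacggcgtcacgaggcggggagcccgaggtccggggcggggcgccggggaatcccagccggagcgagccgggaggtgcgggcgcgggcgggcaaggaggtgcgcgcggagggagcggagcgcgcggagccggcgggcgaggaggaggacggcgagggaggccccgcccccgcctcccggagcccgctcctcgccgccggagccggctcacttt
Kcnk5 held CAACTG 230 bases before its start, Kcnj3 held CAGCTG 65 bases before its start, and the window of Kcng3 held no match. Searched on both strands, CANNTG was in 66.0% of all 27025 promoters of this length, CAGCTG in 12.8% and CAGATG in 14.5%. CANNTG was in 66 of the 98 channel promoters in that table, and in 2 of the 6 whose genes differed with Atoh1 in mESCs.

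Channel genes were mostly dim on the array. Of the 126 genes, 62 stayed under log2 5 in all 10 groups and 5 reached log2 8 in any group. Between 23.0% of the members (iMOP UT) and 35.7% (mESC pAT) had a group mean of log2 5 or more, against 46.3% to 51.7% of all tested clusters over the 10 groups. In the untransfected lines 16 genes were at log2 5 or more in both, 13 in iMOP UT alone and 18 in mESC UT alone. All 8 sodium pore genes and all 3 sodium beta genes were under that level in both lines.

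**Figure D1:**
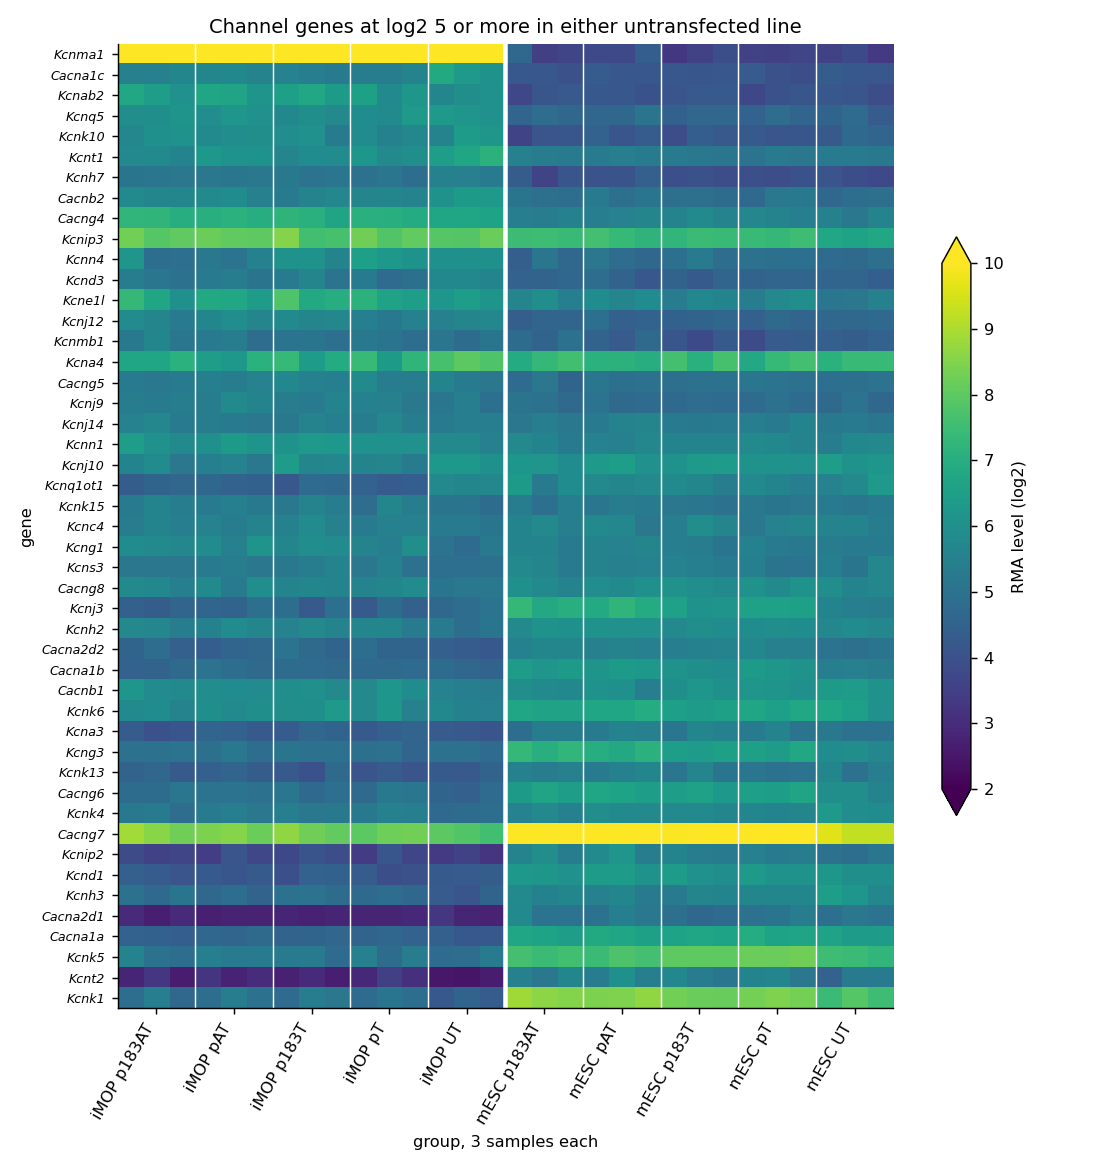
Log2 level of the 47 channel genes that reached log2 5 in an untransfected group, with a row for each gene and a column for each of the 30 samples, iMOP groups left of mESC groups and UT last within each line. Colour runs from log2 2 (dark) to log2 10 (yellow), with values beyond at the end colours, and Kcnma1, in the top row, is at the yellow end in all 15 iMOP samples and under log2 5 in all 15 mESC samples.

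The comparison of iMOP UT with mESC UT asks which channel genes set the 2 progenitor states apart before any vector. At an adjusted p under 0.05 (limma, Benjamini-Hochberg over all tested clusters), 72 of 126 channel genes differed, 24 higher and 48 lower in iMOP UT. Over all tested clusters 57.5% were called, 18.3% higher and 39.2% lower, so that channel genes were called about as often as any gene. The lean to lower was thus that of the whole array, and the family counts below are to be read beside these shares. Genes at log2 5 or more in either line split into 17 higher and 22 lower, and the 33 called genes that were dim in both lines into 7 higher and 26 lower. The median log2 difference was −0.152 over channel genes and −0.201 over all tested clusters. With quantile normalization over all arrays that median over all clusters became 0.045, and the split became 46 higher and 32 lower. Small differences, and the balance of directions, thus depend on that step. In bulk samples such as these, fewer cells of a type and less RNA per cell cannot be told apart.

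**Figure D2:**
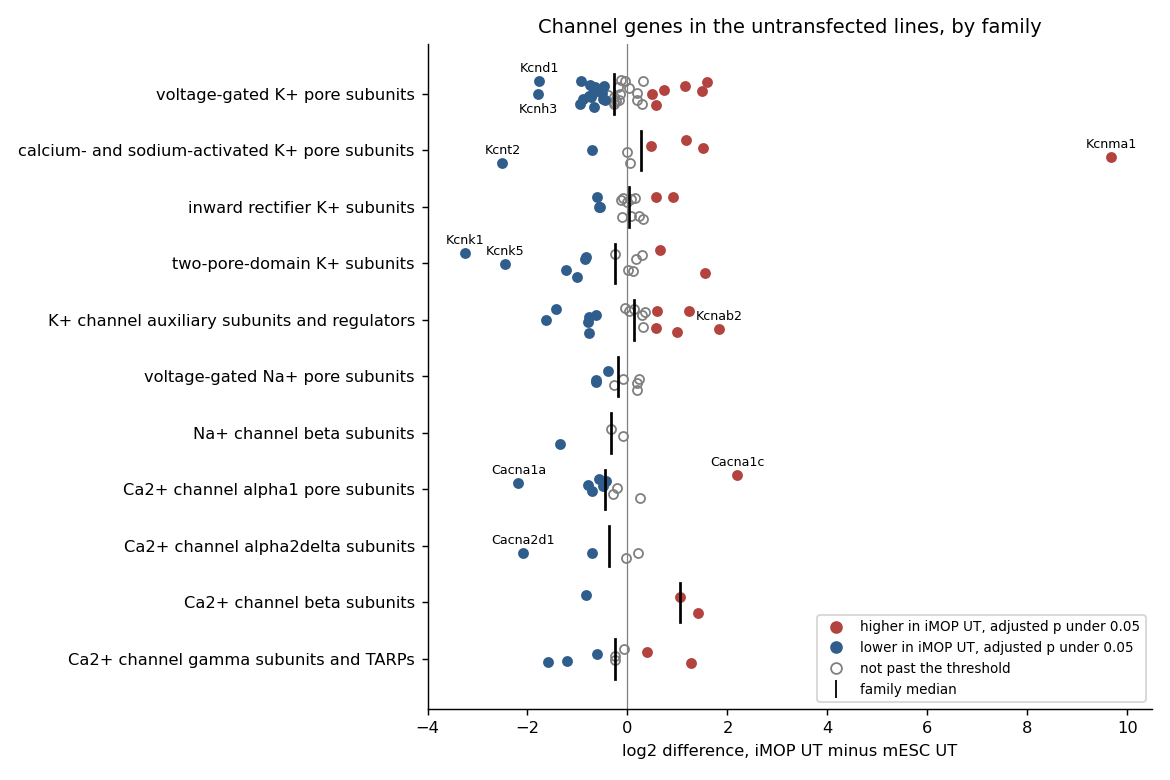
Log2 difference between iMOP UT and mESC UT (horizontal axis) for 124 channel genes by family, with 3 samples in each group. Red and blue points were higher and lower in iMOP UT at an adjusted p under 0.05, open points did not pass, and black bars are family medians. Kcnma1 lies at 9.68, far from every other gene, while Kcnk1, Kcnt2 and Kcnk5 lie at −3.25, −2.50 and −2.44.

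Kcnma1, at chr14:23292288-24005110 on the minus strand (GRCm38.p6), had the largest difference between the lines of all channel genes. Its bright cluster was at 13.29, 13.20 and 13.25 in iMOP UT, against 3.54, 3.80 and 3.37 in mESC UT. The difference was 9.68 ± 0.14 (SE, adjusted p = 3.2e-11). In every iMOP sample of the other groups it was at 12.43 or more, and in every mESC sample at 4.67 or less. The other Kcnma1 cluster ran the opposite way. It was at 3.02, 3.47 and 3.17 in iMOP UT, against 4.48, 4.37 and 4.27 in mESC UT, a difference of −1.15 ± 0.14 (SE, adjusted p = 5.3e-05). Both clusters carry the symbol Kcnma1 alone, so that the 2 measurements of the gene disagree in sign as well as in size.

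**Figure D3:**
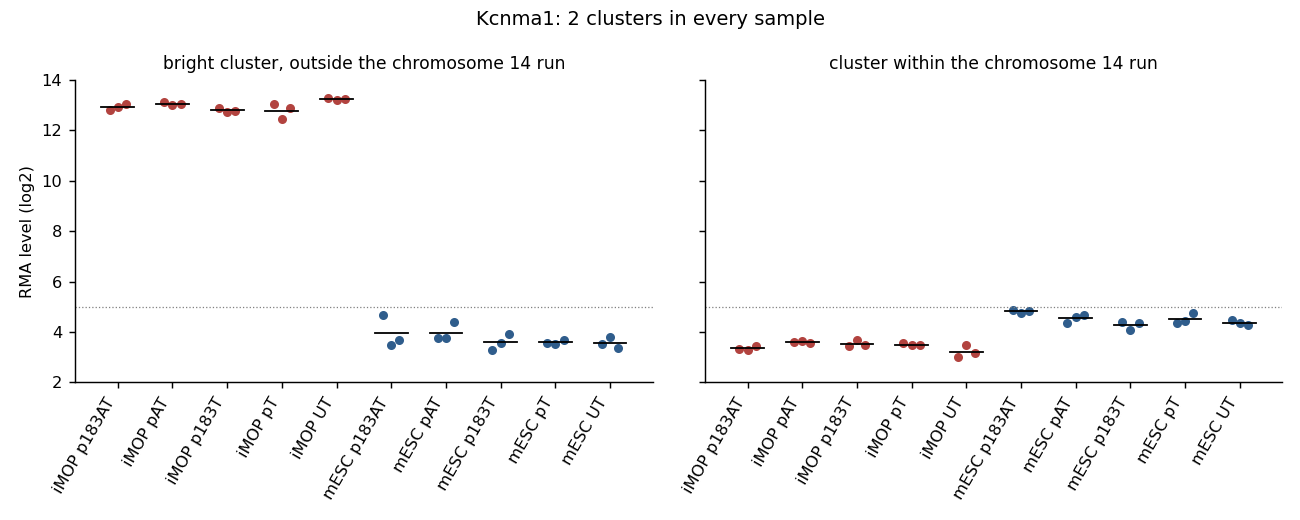
Log2 level of the 2 Kcnma1 clusters in each sample (dots) with the group mean (black line), iMOP groups left of mESC groups and the dotted line at log2 5. The bright cluster is at 12.43 or more in all 15 iMOP samples and at 4.67 or less in all 15 mESC samples, while the other cluster is under 5 in all 30.

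Cluster numbers on this array run along the chromosomes, strand by strand, and the place of a cluster in that order was therefore compared with its gene's position. The other Kcnma1 cluster lay between Gm10248 and Dlg5, and its 10 nearest named clusters were all from chromosome 14, where Kcnma1 lies. The bright cluster lay between Irf8 of chromosome 8 and Fabp5 of chromosome 3. It was the 1 channel cluster of 136 with no neighbour from its own chromosome. The other 135 had one, as did 99.2% of 23325 named clusters. What the bright cluster's probes hybridize with was not tested, and its values are given as those of the cluster.

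Disagreement between clusters was common where a channel gene had several. In the UT comparison 8 of the 10 such genes had clusters of opposite sign, and 5 had clusters called in opposite directions: Kcnma1, Kcnq5, Cacnb2, Kcna4 and Kcnmb4. Kcnq5 differed by 1.60 on its main cluster and by −0.57 on the other. Cacnb2 differed by 1.41 on its main cluster and −0.59 on the other, and Kcna4 by 0.50 and −1.02. For Kcnmb4 the main cluster gave −0.76 and the other 0.46. For 7 of the 10 genes one cluster stood among clusters of the gene's own strand and the other among clusters of the opposite strand. For Cacnb2, Cacnb4, Kcnj3 and Kcnq5 the main cluster stood on the gene's own strand and the other cluster on the opposite strand. The main clusters of Cacng2, Kcnmb4 and Kcna6 stood on the opposite strand. Values of these 3 genes are therefore uncertain as measures of the sense transcript.

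Two-pore-domain channels, the leak channels of the potassium family, held the gene set lowest in iMOP UT, Kcnk1. Kcnk1, which makes a weak inwardly rectifying leak channel, was at 4.19, 4.58 and 4.33 in iMOP UT, against 7.45, 7.88 and 7.52 in mESC UT (−3.25 ± 0.16, SE, adjusted p = 3.6e-08). Kcnk5, an acid-sensitive and volume-regulated leak channel, was at 4.81, 4.87 and 5.25 in iMOP UT, against 7.52, 7.44 and 7.28 in mESC UT (−2.44 ± 0.15, adjusted p = 2.2e-07). Both genes were well above the dim range in every mESC sample and in or near it in every iMOP sample. Kcnk4, a mechanically gated member, differed by −1.22, and Kcnk13 by −1.0. Kcnk10, a mechanically and lipid-gated relative, went the other way at 5.57, 6.43 and 6.23 in iMOP UT against 4.22, 4.73 and 4.60 in mESC UT (1.56 ± 0.22, adjusted p = 0.00012). Of the 13 genes of the family, 2 were higher, 6 lower and 5 not called, beside 18.3% higher and 39.2% lower of all tested clusters.

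Among channels opened by calcium or sodium, 4 of 8 were higher and 2 lower in iMOP UT, or 3 and 3 with Kcnma1 read from its other cluster. The sodium-activated channels Kcnt1 and Kcnt2 moved apart. Kcnt1 was at 6.49, 6.70 and 7.13 in iMOP UT against 5.27, 5.26 and 5.22 in mESC UT (1.52 ± 0.16, SE, adjusted p = 1.5e-05). Kcnt2 was at 2.53, 2.45 and 2.64 in iMOP UT, the low end of the array's range, against 4.52, 5.30 and 5.29 in mESC UT (−2.50 ± 0.20, adjusted p = 1.6e-06). Kcnn4, the intermediate-conductance channel of blood cells and epithelia, was at 6.02, 6.03 and 6.01 in iMOP UT against 4.79, 4.77 and 4.96 in mESC UT (1.18 ± 0.12, adjusted p = 9.8e-06). The small-conductance genes gave 0.48 for Kcnn2, −0.70 for Kcnn3 and 0.06, not called, for Kcnn1.

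Voltage-gated potassium pore genes were the largest family, with 6 of 36 higher, 15 lower and a median difference of −0.26. Over all tested clusters 18.3% were higher and 39.2% lower, with a median of −0.201. Kcnd1, an A-type channel that inactivates fast, was at 4.25, 4.29 and 4.36 in iMOP UT against 6.23, 5.98 and 5.97 in mESC UT (−1.76 ± 0.13, SE, adjusted p = 7.2e-07). Kcnh3, a brain channel of the ether-à-go-go family, was at 4.31, 4.10 and 4.58 in iMOP UT against 6.45, 6.20 and 5.70 in mESC UT (−1.78 ± 0.20, adjusted p = 2e-05). A different A-type gene, Kcnd3, was at 5.73, 5.74 and 5.62 in iMOP UT against 4.61, 4.61 and 4.39 in mESC UT (1.16 ± 0.12, adjusted p = 1.5e-05). Members of one subfamily thus had opposite signs, with all 3 samples of each line apart. Kcnq5, of the M-current family, was at 6.30, 6.16 and 6.04 in iMOP UT against 4.59, 4.79 and 4.30 in mESC UT (1.60 ± 0.15, adjusted p = 5.6e-06), with its other cluster as given above. Kcnh7, an erg channel, was at 5.52, 5.48 and 5.27 in iMOP UT against 4.10, 3.91 and 3.78 in mESC UT (1.5 ± 0.14, adjusted p = 4.4e-06). The modifier gene Kcng3, whose product forms channels only together with other subunits, was at 5.03, 4.97 and 4.80 in iMOP UT against 5.89, 5.96 and 5.71 in mESC UT (−0.92 ± 0.13).

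Auxiliary subunits of potassium channels split nearly evenly, 5 higher and 6 lower of 17. Kcnab2, a beta subunit of shaker-type channels, was at 5.66, 5.95 and 6.06 in iMOP UT against 4.17, 4.11 and 3.90 in mESC UT (1.83 ± 0.14, SE, adjusted p = 1.4e-06). The calcium sensors that bind A-type channels differed in sign, Kcnip3 at 1.24 ± 0.13 and Kcnip2 at −1.62 ± 0.14. Kcnip3, which is also known as a DNA-binding repressor, was at 7.90, 7.86 and 8.16 in iMOP UT against 6.81, 6.64 and 6.77 in mESC UT. Kcnip2 was at 3.36, 3.58 and 3.21 in iMOP UT against 4.99, 4.90 and 5.13 in mESC UT. Kcnrg, a suppressor of shaker-type channel assembly, differed by −1.42, and Kcne1l by 1.0.

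Of 14 inward rectifiers 2 were higher, 3 lower and 9 not called, with a median of 0.04. Kcnj12, a strong rectifier, was at 5.47, 5.65 and 5.69 in iMOP UT against 4.67, 4.68 and 4.73 in mESC UT (0.91 ± 0.12, SE, adjusted p = 8.1e-05). Subunits of the G protein-gated rectifier gave −0.61 for Kcnj3, −0.56 for Kcnj6 and −0.55 for Kcnj5, all called, and 0.31 for Kcnj9, not called. In iMOP pT against mESC pT, Kcnj6 (−0.37) and Kcnj5 (−0.26) were not called and Kcnj9 was higher (0.54). Kcnj10, known from the stria vascularis and from glia, was bright in both lines, at 6.26, 6.26 and 6.01 in iMOP UT and 6.49, 6.12 and 6.20 in mESC UT, and its groups overlapped.

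Calcium channel genes went both ways. Of 4 alpha2delta genes 2 were lower, of 3 beta genes 2 were higher and 1 lower, and of 8 gamma genes 2 were higher and 3 lower. Whether the direction follows the subunit was not tested. Among the 10 alpha1 pore genes 1 was higher and 6 lower, beside 18.3% higher and 39.2% lower of all tested clusters. Cacna1c, the L-type pore of heart and smooth muscle, was at 6.86, 6.32 and 6.12 in iMOP UT against 4.35, 4.19 and 4.18 in mESC UT (2.19 ± 0.18, SE, adjusted p = 2.1e-06). Cacna1a, the P/Q-type pore of nerve terminals, was at 4.44, 4.20 and 4.21 in iMOP UT against 6.60, 6.40 and 6.40 in mESC UT (−2.18 ± 0.13, adjusted p = 1.7e-07). These 2 pore genes were nearly mirror images in size. Cacna2d1, an alpha2delta subunit that brings pores to the surface, was at 3.27, 2.82 and 2.75 in iMOP UT against 4.91, 5.17 and 5.05 in mESC UT (−2.09 ± 0.16, adjusted p = 1.1e-06). The beta subunits Cacnb2 and Cacnb4 differed by 1.41 and 1.05, and Cacnb1, the beta subunit of skeletal muscle, by −0.83 ± 0.13. Among the gamma subunits, Cacng7, a partner of AMPA receptors, was at 7.99, 7.82 and 7.59 in iMOP UT against 9.64, 9.25 and 9.26 in mESC UT (−1.58 ± 0.16, adjusted p = 8.2e-06). Its relative Cacng4 was at 6.73, 6.72 and 6.65 in iMOP UT against 5.52, 5.19 and 5.58 in mESC UT (1.27 ± 0.14). Cacng6, known from skeletal muscle, differed by −1.21.

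Sodium channel genes contributed no bright gene, as above, and none was higher in iMOP UT. Scn9a (−0.63), Scn7a (−0.63) and Scn3a (−0.38) were lower among the pores. Scn8a, the pore of mature axon initial segments, was at 5.04, 4.72 and 4.70 in iMOP UT and 4.93, 5.08 and 4.73 in mESC UT, with overlapping groups. Scn3b, a beta subunit, was at 3.69, 3.26 and 3.63 in iMOP UT against 5.32, 4.59 and 4.74 in mESC UT (−1.35 ± 0.20, SE, adjusted p = 0.00016).

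The comparison of iMOP pT with mESC pT uses none of the same arrays and repeats the question in transfected and sorted cells. Here 71 of 126 channel genes differed, 39 higher and 32 lower in iMOP pT. Over all tested clusters 58.1% were called, 21.8% higher and 36.3% lower. With quantile normalization the split was 50 higher and 28 lower, and without the second iMOP pT sample 35 higher and 34 lower. Between the 2 comparisons 50 genes were called in both, 21 higher and 29 lower in iMOP each time, and none changed direction. Of all tested clusters 57.5% and 58.1% were called in the 2 comparisons, and how many were called in both was not counted. The agreement is thus not shown to be particular to channel genes. The UT comparison alone called 22, of which 19 were lower, and the pT comparison alone called 21, of which 18 were higher. Splits within several families moved with this. In pT, two-pore-domain genes were 5 higher and 4 lower, and voltage-gated potassium pores 8 higher and 7 lower. Calcium alpha1 pores were 1 higher and 3 lower, and Cacnb1, lower in UT, was not called. Differences given above from UT alone therefore need not hold in transfected and sorted cells. Kcnma1 on its bright cluster (9.19 ± 0.17, SE), Kcnab2 (2.24 ± 0.20), Kcnk10 (1.54 ± 0.14) and Cacng4 (1.42 ± 0.13) were again among the genes higher in iMOP. Kcnk1 (−3.44 ± 0.14), Kcnk5 (−2.98 ± 0.18), Cacna2d1 (−2.30 ± 0.14), Kcnt2 (−2.30 ± 0.20) and Cacna1a (−2.18 ± 0.14) were again among those lower. The other Kcnma1 cluster was again called lower in iMOP (−1.01 ± 0.14). The G protein-gated rectifier gene Kcnj3 was at 4.28, 4.83 and 4.45 in iMOP pT against 6.57, 6.57 and 6.56 in mESC pT (−2.04 ± 0.16, adjusted p = 5e-06). The other Kcnj3 cluster gave −0.18 and was not called.

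Of the channel genes known from hair cells, 9 were analysed here, and all 9 differed between the untransfected lines, 5 higher and 4 lower in iMOP UT, where 57.5% of all tested clusters were called. With Kcnma1 read from its other cluster (−1.15) the split was 4 higher and 5 lower. In iMOP pT against mESC pT, where 58.1% of all tested clusters were called, the list gave 4 higher, 2 lower and 3 not called, Cacna1d (−0.22), Kcnn2 (0.03) and Kcnh2 (−0.36). The higher ones in the UT comparison were Kcnma1, on its bright cluster, Cacnb2 (1.41, the beta subunit of the hair cell calcium channel), Kcnmb1 (0.58, a BK beta subunit), Kcnj2 (0.57, a strong inward rectifier) and Kcnn2 (0.48, called under 6 of 13 alternative settings). The lower ones were Cacna1d (−0.70 ± 0.15, SE), Cacna2d2 (−0.70 ± 0.13), Kcna10 (−0.68) and Kcnh2 (−0.67 ± 0.14). Cacna1d, the pore of the hair cell calcium channel, was dim in both lines, at 3.86, 3.68 and 3.53 in iMOP UT against 4.26, 4.65 and 4.27 in mESC UT. Cacna2d2 was at 4.46, 4.33 and 4.19 in iMOP UT against 5.06, 4.95 and 5.09 in mESC UT. The main cluster of Cacnb2, among clusters of the gene's own strand, thus had the opposite sign to Cacna1d and Cacna2d2. The other Cacnb2 cluster (−0.59), among clusters of the opposite strand, had the same sign as they did. Markers of other cell types moved as well, with 6 of 10 glial markers higher and 2 lower in iMOP UT, 6 of 12 neuronal markers higher and 4 lower, and 9 of 12 feeder fibroblast markers lower and 1 higher. Summed glial marker levels were log2 10.79 to 11.15 in iMOP UT against 7.81 to 7.93 in mESC UT, and summed fibroblast marker levels were 7.98 to 8.08 in iMOP UT against 9.55 to 9.73 in mESC UT. Their part in the channel differences was not tested.

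Of 12 measured channel genes known from neuronal axons and terminals, none was higher and 4 were lower in iMOP UT, Cacna1a, Cacna1b (−0.78), Kcnq3 (−0.75) and Scn3a, a smaller share than the 57.5% of all tested clusters. In the pT comparison 1 was higher and 5 were lower. Of 9 known from skeletal and heart muscle, Cacna1c was higher and 4 were lower, and in the pT comparison 2 were higher and 2 lower. Of 4 known from the stria vascularis, Kcne1 (−0.63) was lower and the rest were not called, and in the pT comparison 2 were lower.

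Between mESC pT and mESC UT, channel genes were called at a rate near that of all tested clusters. In mESC pT against mESC UT 13 of 126 were called (10.3%), 10 higher and 3 lower. Over all tested clusters 13.1% were called, 7.07% higher and 6.07% lower. The rise was widest for Kcnj3, the G protein-gated rectifier, at 6.57, 6.57 and 6.56 in mESC pT against 5.61, 5.42 and 5.37 in mESC UT (1.10 ± 0.16, SE, adjusted p = 0.00017). The other Kcnj3 cluster, among clusters of the opposite strand, gave 0.22 and was not called. Cacna1b, the N-type pore of nerve terminals, was at 6.37, 6.24 and 6.11 in mESC pT against 5.43, 5.49 and 5.40 in mESC UT (0.80 ± 0.11, adjusted p = 0.00011). The leak channel genes Kcnk5 (0.79 ± 0.11) and Kcnk1 (0.76 ± 0.13) rose as well. Kcnk5 was at 8.20, 8.16 and 8.26 in mESC pT against 7.52, 7.44 and 7.28 in mESC UT, and Kcnk1 was at 8.34, 8.45 and 8.34 in mESC pT against 7.45, 7.88 and 7.52 in mESC UT. Kcng3 (0.74), Cacng7 (0.72), Cacng6 (0.72), Kcnip3 (0.67), Cacna1h (0.62, a T-type pore) and Cacna2d2 (0.53) were the other genes that rose. All 10 genes that rose were at log2 5 or more in mESC pT. The 3 that fell, Kcnf1 (−0.59), Kcnj5 (−0.41) and Kcnk4 (−0.39), were called under 6, 5 and 7 of 14 alternative settings. Summed fibroblast marker levels were 8.83 to 8.96 in mESC pT against 9.55 to 9.73 in mESC UT, and their part was not tested. Vector, reagent and sorting cannot be told apart in this comparison.

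In iMOP cells the same comparison called 39 of 126 (31.0%), 29 higher and 10 lower in iMOP pT. Over all tested clusters 41.3% were called, 19.4% higher and 21.9% lower. Most of the genes that rose, 19 of 29, were dim in both groups, while the genes at log2 5 or more split into 10 higher and 9 lower. Kcnj4, a strong inward rectifier of brain, was at 5.94, 6.31 and 5.94 in iMOP pT against 4.86, 4.75 and 4.91 in iMOP UT (1.23 ± 0.15, SE, adjusted p = 6.5e-06). Kcnk12, a two-pore-domain gene whose product is often silent, was at 4.84, 5.36 and 5.04 in iMOP pT against 3.73, 4.37 and 4.02 in iMOP UT (1.03 ± 0.17, adjusted p = 8.7e-05). Kcns1 (0.98 ± 0.20), a modifier subunit, and Kcnk2 (0.77 ± 0.15), a mechanically gated leak channel, also rose. Kcnq1ot1, the imprinted antisense transcript of the Kcnq1 locus, was at 4.52, 4.31 and 4.39 in iMOP pT against 5.77, 5.68 and 5.71 in iMOP UT (−1.31 ± 0.15, adjusted p = 5.2e-06). Cacna1c, the L-type pore, was at 5.36, 5.35 and 5.57 in iMOP pT against 6.86, 6.32 and 6.12 in iMOP UT (−1.01 ± 0.16, adjusted p = 8.4e-05). Kcnt1 was at 6.19, 5.77 and 5.94 in iMOP pT against 6.49, 6.70 and 7.13 in iMOP UT (−0.81 ± 0.16, adjusted p = 0.00053). Kcnd3 (−0.68), Cacnb2 (−0.63) and Kcnh7 (−0.42) fell too.

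Some of these calls rested on the second iMOP pT sample. Without it 20 genes were called, 12 higher and 8 lower. Of the 19 calls lost, 17 were of genes that rose by 0.37 (Kcnj8) to 0.57 (Kcnk1), and Kcnk1 was at 0.48 without the sample (adjusted p = 0.104). Kcnma1, on its bright cluster, was at 13.02, 12.43 and 12.89 in iMOP pT against 13.29, 13.20 and 13.25 in iMOP UT (−0.47 ± 0.14, SE, adjusted p = 0.014), and without that sample the difference was −0.29 (adjusted p = 0.102). The other Kcnma1 cluster gave 0.29 with all samples and was not called. Kcna4, an A-type pore, was at 7.41, 6.37 and 7.23 in iMOP pT against 7.67, 7.97 and 7.81 in iMOP UT (−0.82 ± 0.27, adjusted p = 0.019), and without that sample the difference was −0.50 (adjusted p = 0.134). The other Kcna4 cluster was called in the opposite direction (0.64, adjusted p = 0.0025). Kcnj4 (1.11), Kcnk12 (0.89), Kcnq1ot1 (−1.26) and Cacna1c (−0.97) were still called without it. Summed glial marker levels were 10.92, 9.67 and 9.95 in the 3 iMOP pT samples against 10.87, 11.15 and 10.79 in the iMOP UT samples, so that 2 of 3 transfected samples were lower, and the part of this in the channel differences was not tested.

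The response to pT itself differed between the lines for 28 channel genes, 18 with the higher response in iMOP cells and 10 with the lower. Over all tested clusters 35.6% were called, 15.6% higher and 20% lower. With quantile normalization the split was 10 and 12, and without the second iMOP pT sample 18 genes were called, 9 each way. The 10 calls lost without it were Cacna1f, Cacna1g, Cacnb1, Cacng3, Kcne3, Kcnmb3, Kcnj15, Kcng2, Kcns3 and Scn11a, with adjusted p of 0.0519 (Kcnmb3) to 0.165 (Kcns3). The widest difference was for Kcnj3 (−1.44, adjusted p = 6.7e-05), which rose in mESC pT and was at 4.28, 4.83 and 4.45 in iMOP pT against 4.67, 4.86 and 5.05 in iMOP UT. In iMOP pT against iMOP UT this main cluster was not called (−0.34), while the other Kcnj3 cluster was called higher (0.51). Kcnk12 (1.04, adjusted p = 0.00025), Kcnk4 (0.96, adjusted p = 0.00016), Kcns1 (0.96) and Kcnj4 (0.91, adjusted p = 0.00074) were the widest on the other side. Kcnk4 was called in each line with opposite signs.

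**Figure D4:**
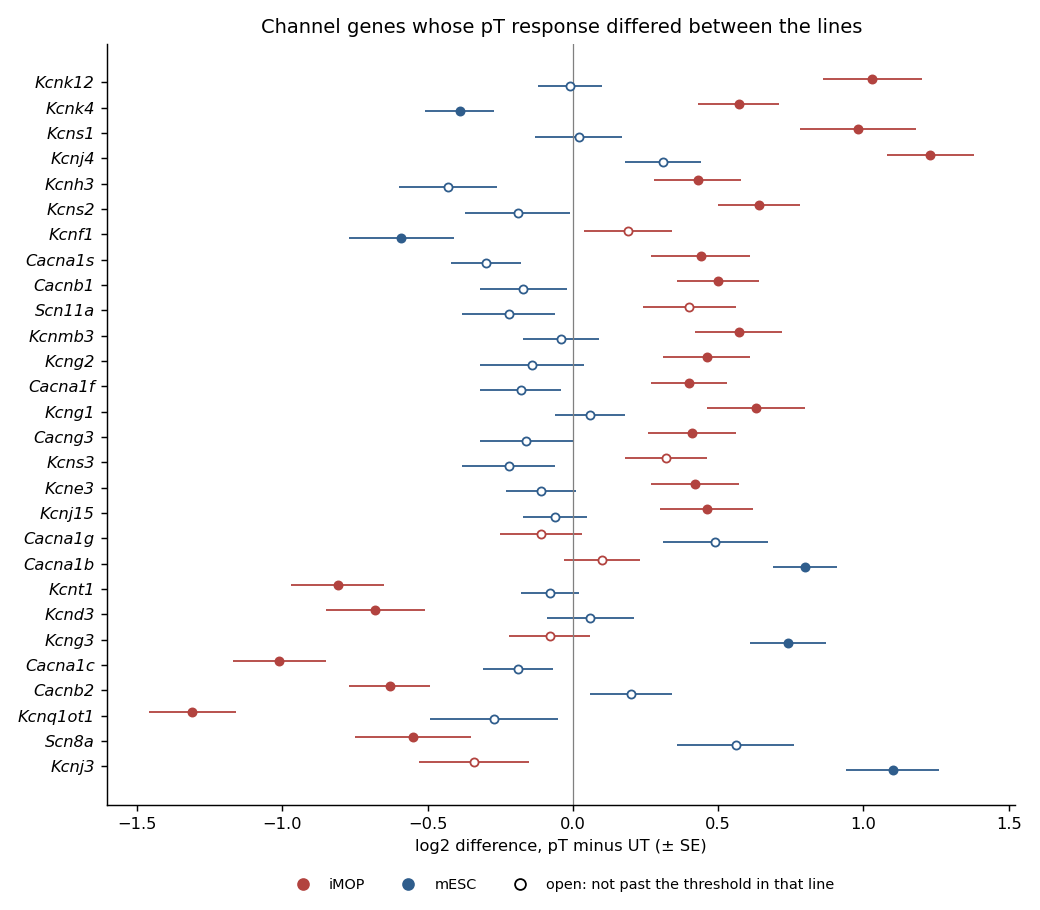
Log2 difference between pT and UT (horizontal axis, ± SE, 3 samples a group) in iMOP cells (red, upper point of each row) and mESCs (blue, lower point) for the 28 channel genes whose response differed between the lines. Open points did not pass an adjusted p of 0.05 in that line. Kcnj3 and Kcnk12 stand at opposite ends of the order, and only Kcnk4 has filled points on both sides of 0.

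Of the vector inserts, Atoh1 alone came with called channel genes, and in the main fits in mESCs alone. In iMOP cells Kcnn4 narrowly missed the threshold and was called under some alternative settings, as given below. In mESCs both Atoh1 vectors (p183AT and pAT) were set against both vectors without Atoh1 (p183T and pT). There 6 of 126 channel genes were called (4.76%), 5 higher and 1 lower. Over all tested clusters 2.9% were called, 1.77% higher and 1.13% lower. Kcnk5 was the gene that fell. It was at 7.63, 7.46 and 7.57 in mESC p183AT and 7.46, 7.75 and 7.60 in mESC pAT, against 8.03, 8.0 and 8.01 in mESC p183T and 8.20, 8.16 and 8.26 in mESC pT (−0.53 ± 0.07, SE, adjusted p = 0.00052). No Atoh1 sample reached the lowest sample without Atoh1, and the Atoh1 samples lay close to the mESC UT values of 7.52, 7.44 and 7.28. Kcng3 was at 7.32, 7.03 and 7.27 in mESC p183AT and 6.99, 6.83 and 7.13 in mESC pAT, against 6.46, 6.39 and 6.55 in mESC p183T and 6.56, 6.41 and 6.80 in mESC pT (0.56 ± 0.09, adjusted p = 0.0019). Kcnj3, on its main cluster, was at 7.32, 6.82 and 7.05 in mESC p183AT and 6.89, 7.24 and 6.91 in mESC pAT, against 6.59, 6.08 and 6.15 in mESC p183T and 6.57, 6.57 and 6.56 in mESC pT (0.62 ± 0.11, adjusted p = 0.0043). For both genes the 6 Atoh1 samples were all above the 6 others. These 3 genes, whose promoters are shown above, passed under all 19 settings.

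The other 3 genes were dimmer. Kcnh8, a relative of Kcnh3, was at 4.94, 4.78 and 4.31 in mESC p183AT and 4.78, 4.68 and 4.45 in mESC pAT, against 4.10, 4.26 and 4.03 in mESC p183T and 3.76, 3.98 and 4.30 in mESC pT (0.58 ± 0.13, SE, adjusted p = 0.02). Kcnh1, an ether-à-go-go pore, was at 5.49, 5.42 and 5.35 in mESC p183AT and 5.20, 5.36 and 5.56 in mESC pAT, against 4.73, 5.11 and 5.09 in mESC p183T and 4.78, 4.54 and 5.12 in mESC pT (0.50 ± 0.13, adjusted p = 0.048). That call was near the threshold and was kept in 5 of 18 alternative settings. Kcnmb1, the BK beta subunit of smooth muscle, was at 4.82, 4.57 and 4.99 in mESC p183AT and 4.54, 4.30 and 4.75 in mESC pAT, against 4.13, 3.79 and 4.26 in mESC p183T and 3.87, 4.31 and 4.35 in mESC pT (0.54 ± 0.12, adjusted p = 0.017), and here the groups overlapped. Kcnmb1 was nonetheless called under all 18 alternative settings, and Kcnh8 under 13 of 18. Kcnmb1 was the 1 called gene of the 9 measured from the hair cell list. Of 10 pluripotency markers 3 were lower and none higher with Atoh1 in mESCs, and of 9 hair cell markers 1 was lower, and their part was not tested.

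**Figure D5:**
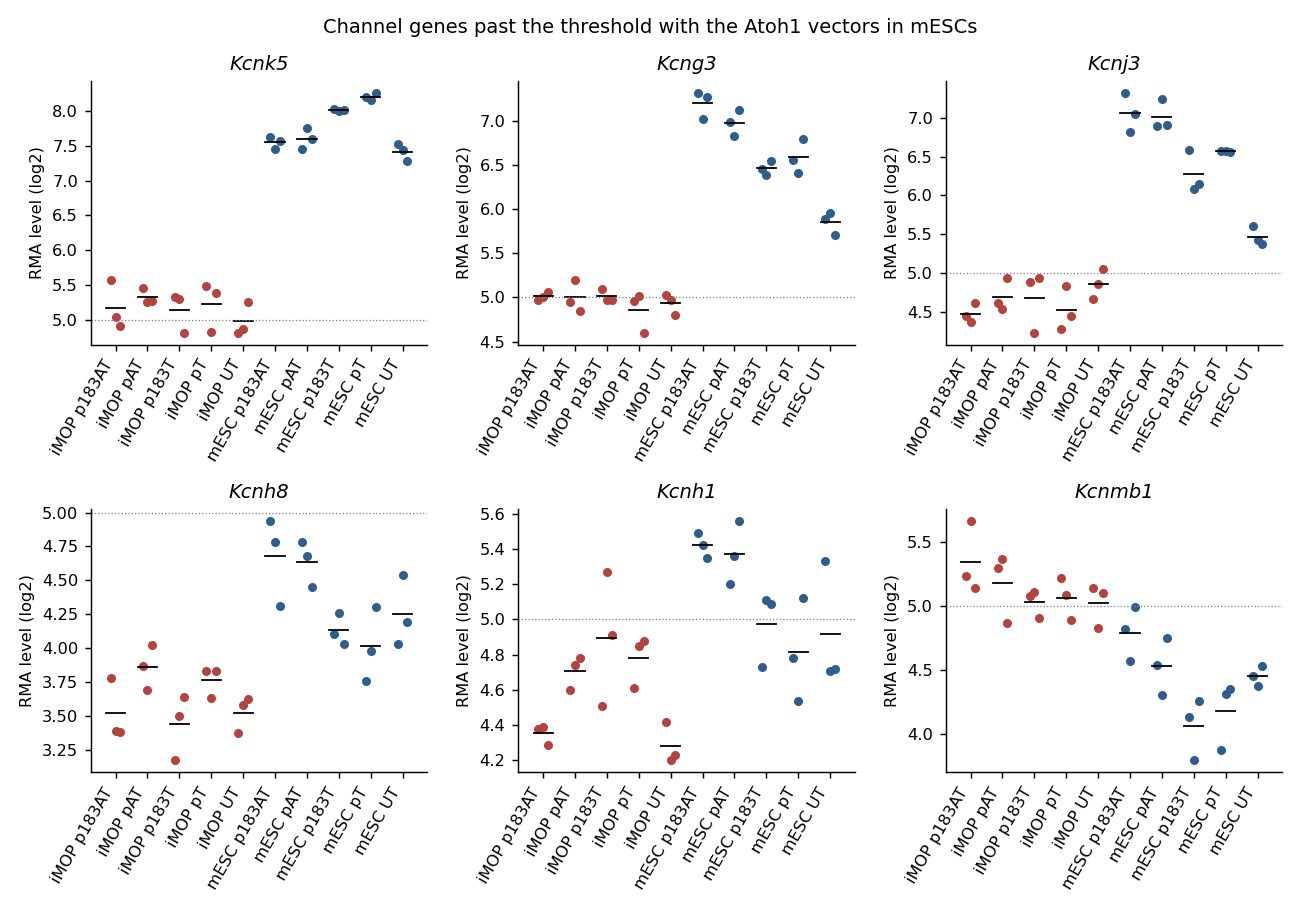
Log2 level in each sample (dots) with the group mean (black line) for the 6 channel genes called with the Atoh1 vectors in mESCs, iMOP groups left of mESC groups in the order p183AT, pAT, p183T, pT and UT, with the dotted line at log2 5. In mESCs the Kcnk5 dots of both Atoh1 vectors lie at 7.75 or less and those of the vectors without Atoh1 at 8.0 or more.

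Vector by vector the calls in mESCs were fewer. mESC pAT against mESC pT called 1 channel gene, Kcnk5 (−0.60 ± 0.11, SE, adjusted p = 0.01), beside 0.797% of all tested clusters. That call was lost without mESC pT replicate 1 (−0.61), without mESC pT replicate 3 (−0.58) and without mESC pAT replicate 1 (−0.53), though the difference hardly moved. mESC p183AT against mESC pT called Kcnk5 (−0.65 ± 0.11, adjusted p = 0.0053) and Kcng3 (0.62 ± 0.13, adjusted p = 0.028), beside 1.05% of all tested clusters. The Kcng3 call was lost without mESC pT replicate 1 (0.60) or 2 (0.53) and without mESC p183AT replicate 1 (0.56) or 3 (0.58).

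In iMOP cells no channel gene was called with Atoh1 in the main fits. Over both Atoh1 vectors against both without, limma called 0 of 126 after adjustment and 3 had an unadjusted p under 0.05, beside 0.331% of all tested clusters called. iMOP pAT against iMOP pT called 0 (unadjusted 4, beside 0.0197% of all tested clusters), where the methods' one-way comparison passed 1 gene at its own thresholds and 0 after Benjamini-Hochberg. iMOP p183AT against iMOP pT called 0 (unadjusted 9, beside 0.138%), and the one-way comparison also 0. The widest difference was for Kcnn4, at 6.17, 4.90 and 4.92 in iMOP p183AT and 5.19, 5.04 and 5.50 in iMOP pAT, against 6.09, 6.07 and 5.58 in iMOP p183T and 6.52, 6.26 and 6.09 in iMOP pT. The difference was −0.82 ± 0.18 (SE, adjusted p = 0.059, interval −1.20 to −0.44), and 1 of the 6 Atoh1 samples, iMOP p183AT replicate 1, lay among the samples without Atoh1. For the genes called in mESCs the iMOP differences were 0.06 for Kcnk5 (interval −0.24 to 0.36), 0.07 for Kcng3 (−0.14 to 0.28) and −0.01 for Kcnj3 (−0.29 to 0.27). Kcnma1 gave 0.19 on its bright cluster (−0.02 to 0.41).

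Tested directly, the response to Atoh1 differed between the lines for 1 channel gene, beside 1.39% of all tested clusters. Kcnh1 gave −0.31 in iMOP cells (interval −0.55 to −0.07) and 0.50 in mESCs, a difference of −0.81 ± 0.17 (SE, adjusted p = 0.0097). For the genes with the firmest change in mESCs the difference between lines missed the threshold, at 0.59 for Kcnk5 (adjusted p = 0.083), −0.63 for Kcnj3 (adjusted p = 0.079) and −0.49 for Kcng3 (adjusted p = 0.059). Their response is thus not shown to be particular to mESCs.

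Adding the miR-183 family, to pT as p183T or to pAT as p183AT, came with no called channel gene in either line. Against pT, iMOP p183T called 0 of 126 (unadjusted 6) and mESC p183T called 0 (unadjusted 4), each beside 0.0118% of all tested clusters. Set against pAT, iMOP p183AT called 0 (unadjusted 9) and mESC p183AT called 0 (unadjusted 4), again beside 0.0118% in each line. The one-way comparison passed 0 in all 4 of these comparisons, both at its own thresholds and after adjustment. In mouse sensory neurons the family is known to repress the alpha2delta genes Cacna2d1 and Cacna2d2, and these were followed whatever their value. Cacna2d1 was at 4.95, 4.68 and 4.79 in mESC p183T against 5.02, 5.11 and 5.37 in mESC pT, a difference of −0.36 (interval −0.74 to 0.03, adjusted p = 1). The groups did not overlap, but the interval holds 0. Between mESC p183AT (5.79, 5.05 and 5.05) and mESC pAT (5.01, 5.44 and 5.20) Cacna2d1 differed by 0.08 (−0.31 to 0.47). In iMOP cells it was near the array's low end, at 2.82, 2.73 and 2.82 in iMOP p183T and 2.82, 2.83 and 2.93 in iMOP pT (−0.07, interval −0.37 to 0.23). Cacna2d2 differed by 0.12 in iMOP p183T (−0.21 to 0.45) and by −0.06 in mESC p183T (−0.28 to 0.17), each against pT of its line. The Cacna2d1 interval in mESC p183T against mESC pT (−0.74 to 0.03) leaves room for a fall but hardly for a rise. The other intervals leave room for a modest change of either sign, and protein was not measured.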

How the data were processed

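Total RNA of 30 samples was amplified and labelled (WT PLUS kit), then hybridised to Affymetrix Mouse Gene 2.0 ST arrays. The deposited values are log2 signals per transcript cluster, made by the authors in Affymetrix Expression Console 1.4.1.46 with RMA (background correction, quantile normalization and median polish), per the submitters' processing notes. All 30 columns were mapped to samples, with 0 left over. Array medians differed between the lines, so that a quantile step over all arrays was tried as an alternative.

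Genes were named through the platform annotation, and positions and sequences come from RefSeq tables of GRCm38.p6. Differences were fitted with limma 3.58.1 in R 4.3.3 (lmFit, eBayes), with adjustment by Benjamini-Hochberg over 25341 clusters with a symbol and a threshold of 0.05. Vector comparisons and pT against UT used the 15 arrays of a line, the line comparisons only the arrays compared, and the differences between lines all 30. A group mean under log2 5 was called dim. Scripts were tested on simulated data. Alternatives were 1 fit of all arrays, the compared arrays alone, the replicate number as a block, dim clusters left out, quantile normalization, a trended eBayes, 1 cluster per symbol, the methods' one-way comparison, and each sample left out.

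Named genes were Kcnma1, the hair cell and alpha2delta lists, all members called with Atoh1 or miR-183 vectors, the widest called members in pT against UT and per family in the UT comparison, up to 5 each way for differences between lines, and the brightest members of each family. Members, lists and rules were chosen with earlier results of these data known. Some further symbols that match the rule were not analysed here.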

Additional observations from a re-analysis of the deposited data

Results flagged for a closer look

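The response to pT differed between the lines for 28 channel genes by the test of the difference itself (limma, iMOP response minus mESC response). Over all tested clusters 35.6% were called, 15.6% higher and 20% lower. The response was higher in iMOP cells for Kcnk12 (1.04), Kcnk4 (0.96), Kcns1 (0.96), Kcnj4 (0.91), Kcnh3 (0.86), Kcns2 (0.83), Kcnf1 (0.78), Cacna1s (0.74), Cacnb1 (0.66), Scn11a (0.62), Kcnmb3 (0.61), Kcng2 (0.60), Cacna1f (0.58), Kcng1 (0.57), Cacng3 (0.56), Kcns3 (0.55), Kcne3 (0.52) and Kcnj15 (0.52). It was lower in iMOP cells for Kcnj3 (−1.44), Scn8a (−1.11), Kcnq1ot1 (−1.04), Cacnb2 (−0.83), Cacna1c (−0.82), Kcng3 (−0.81), Kcnd3 (−0.74), Kcnt1 (−0.73), Cacna1b (−0.70) and Cacna1g (−0.60). Without the second iMOP pT sample 18 of them were called, and Cacna1f, Cacna1g, Cacnb1, Cacng3, Kcne3, Kcnmb3, Kcnj15, Kcng2, Kcns3 and Scn11a were not. The response to Atoh1 differed between the lines for Kcnh1 alone among channel genes (−0.81). Groups held 3 samples, too few to test single samples for standing apart.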

How the results depend on the processing

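Counts of called channel genes moved by over 1.5 times as follows. With dim clusters left out they were 25 for the UT comparison (72 in the report), 24 for the pT comparison (71), 8 for mESC pT against UT (13), 14 for iMOP pT against UT (39), 3 for the mESC Atoh1 vectors (6), 1 for the iMOP Atoh1 vectors (0), 9 for the line difference in the pT response (28) and 3 for that in the Atoh1 response (1), where fewer genes were tested. The methods' one-way comparison at its own thresholds gave 28 for UT, 14 for iMOP pT against UT, 2 for mESC pAT, 5 for mESC p183AT and 1 for iMOP pAT, each against pT. After Benjamini-Hochberg it gave 5 for mESC pT against UT, 10 for iMOP pT against UT and 0 for mESC pAT and mESC p183AT. With 1 fit of all 30 arrays mESC pAT gave 0, mESC p183AT 1 and the iMOP Atoh1 vectors 1. With the compared arrays alone mESC pAT and mESC p183AT gave 0. Leaving out each sample in turn gave 66 to 70 (UT), 60 to 69 (pT), 10 to 14 (mESC pT against UT), 20 to 39 (iMOP pT against UT), 0 to 1 (mESC pAT), 0 to 0 (mESC p183T), 1 to 2 (mESC p183AT), 0 to 0 (mESC p183AT against pAT), 4 to 6 (mESC Atoh1 vectors), 0 to 0 (iMOP pAT), 0 to 0 (iMOP p183T), 0 to 1 (iMOP p183AT), 0 to 0 (iMOP p183AT against pAT), 0 to 1 (iMOP Atoh1 vectors), 18 to 34 (line difference, pT) and 1 to 3 (line difference, Atoh1). The gene called with the iMOP Atoh1 vectors was Kcnn4, also without iMOP p183AT replicate 1 (−1.03).

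For the 125 named results, 1601 alternatives kept direction and side of the threshold, 176 lost it, 4 gained it and 13 changed sign. In the UT comparison quantile normalization turned the sign of Scn2b (0.21), Kcnj4 (0.20), Kcnj10 (0.13), Kcnq1ot1 (0.11) and Scn8a (0.23). Leaving out each sample in turn gave −0.10 to 0.03 for Cacna2d2 in mESC p183T and −0.01 to 0.23 in iMOP p183T, and in the UT comparison −0.18 to 0.00 for Scn2b, −0.06 to 0.15 for Kcnn1, −0.17 to 0.02 for Kcnj10 and −0.31 to 0.05 for Kcnq1ot1. None of these had been called. The other Kcnma1 cluster, an alternative chosen after seeing the data, gave −1.15 in UT and −1.01 in pT. Whether the replicate numbers pair the samples is not settled. Same-numbered samples deviated together at r = −0.20 to 0.32 (median 0.04) in iMOP cells and −0.19 to 0.29 (median 0.02) in mESCs. For differently numbered samples the medians were −0.02 and −0.01. In each line 9 of 30 same-numbered pairs were over 0.1. With the replicate block the iMOP Atoh1 vectors called 1 channel gene in place of 0, and the other counts stayed within 1.5 times. The causes of these changes were not tested.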

Other observations

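Genes whose products work with these channels were measured beside them, from a list of partners of which 33 were analysed here. In iMOP UT against mESC UT 4 were higher and 17 lower, where 57.5% of all tested clusters were called, 18.3% higher and 39.2% lower. In iMOP pT against mESC pT 8 were higher and 13 lower, beside 21.8% higher and 36.3% lower of all tested clusters. Ankyrins, which anchor sodium and potassium channels in the membrane, were higher (Ank2 2.31 ± 0.17, SE, and Ank3 0.51 ± 0.15). Of the scaffold genes of the synapse, Dlg4 was higher (1.16 ± 0.14) and Dlg3 (−1.70 ± 0.12) and Dlg1 (−0.61 ± 0.15) were lower. The pacemaker channel genes gave 0.84 ± 0.14 for Hcn4 and −0.77 ± 0.16 for Hcn2. Stac2 (−1.92 ± 0.12), known to bind L-type calcium channels, Rims2 (−1.86 ± 0.12), a scaffold of the release site, and Sptbn4 (−1.78 ± 0.17), the spectrin of the axon initial segment, were among the lower ones.

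REST and its corepressors silence neuronal genes, channel genes among them, in cells that are not neurons. Of 10 genes of that complex 2 were higher and 3 lower in iMOP UT, with Rest itself at −1.14 ± 0.13 (SE, limma, adjusted p = 1.9e-05). Over all tested clusters 57.5% were called there, 18.3% higher and 39.2% lower. With the Atoh1 vectors in mESCs Rest was lower (−0.50 ± 0.08, adjusted p = 0.001), while Rcor2 (0.43 ± 0.09) and Ctdspl (0.51 ± 0.11) were higher, beside 2.9% of all tested clusters called. Whether Rest and the channel genes moved together for a shared reason was not tested.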
